A study of Homo sapiens with 9 samples.

Results

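The 45 genes described here encode the enzymes of glycolysis, the machinery with which a cell senses oxygen, and genes that are known to respond to low oxygen. Each was followed in BL2 cells, an established line from a human Burkitt lymphoma, under 3 conditions (untreated control, CD40L, LPS), and was measured by 1 probe set, the brightest over the 9 arrays among those that the platform annotation gives to that gene alone. By this rule 43 of the 45 genes were measured, out of 19775 genes that a probe set names alone, and SLC16A3, a lactate exporter, and CA9, a carbonic anhydrase of the cell surface, had no such probe set. Control cells received no stimulus, and the labels state no culture time for them. Stimulated cells were exposed for 6 hrs either to recombinant human CD40L at 200 ng/ml, the ligand by which helper T cells engage CD40 on B cells, or to LPS at 1 µM, a glycolipid of the bacterial outer membrane. Every condition was hybridised once in each of 3 experimental batches, which the study describes as independent biological experiments, so that n = 3 arrays per condition. All arrays come from 1 cell line kept in culture, and no oxygen tension, glucose level or lactate level accompanies them here.

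Glycolysis converts glucose to pyruvate in the cytosol, and lactate dehydrogenase turns pyruvate into lactate where it is not passed to the mitochondria. When oxygen is plentiful, prolyl hydroxylases mark the alpha subunits of the hypoxia-inducible factors (HIF) for destruction through the VHL ubiquitin ligase, and when oxygen falls the alpha subunits persist, pair with ARNT and bind short DNA elements beside their target genes. Known targets include glycolytic enzymes, mitophagy receptors, growth inhibitors and the hydroxylases and demethylases that themselves use oxygen. Burkitt lymphoma derives from germinal centre B cells, and germinal centres are known to hold poorly oxygenated regions.

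Levels are given on the authors' generalised log2 scale, in which a difference between dim probe sets understates the fold change, and values on single arrays are listed in the order of batches 1, 2 and 3. Array medians lay between 6.42 and 6.47, and 3 members (EPAS1, RORA and SLC2A3) had a mean level at or below 6.45, the median over all probe sets, so a change in these could have gone unseen. Markers of B cells were for the most part higher than those of other cell types. The 11 B cell and germinal centre genes had mean levels of 7.87 to 13.0. By contrast, 6 of 8 T and NK cell genes, 4 of 6 monocyte genes and 4 of 6 fibroblast genes lay at or below that median. The highest levels in these 3 lists were 6.51, 6.67 and 7.94. The last was that of COL1A1, which lay above VPREB3, the lowest B cell gene. The B cell genes themselves moved with the stimuli, limma calling 9 of 11 lower after CD40L and 7 of 11 after LPS. Of the genes that a probe set names alone, 2.92% and 1.48% were called lower. PAX5 went the other way and was not called, with log2 fold changes of 0.39 and 0.31 (adjusted p = 0.107 and 0.339 by limma). Summed over the 11 genes, levels ran from 111.0 to 112.2 on the control arrays, from 107.5 to 108.0 after CD40L and from 108.7 to 109.6 after LPS, and the part of this shift in the results below was not tested. Among the T and NK cell, monocyte and fibroblast genes limma called none in either comparison with control (2, 0 and 2 of them had an unadjusted p below 0.05 after CD40L, and none after LPS).

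After CD40L, 12 of the 43 measured members were lower than in control cells and 0 were higher at an adjusted p of at most 0.05. The same threshold called 1.87% of all probe sets lower and 3.71% higher, or 2.92% and 5.03% of the probe sets that stand for 1 named gene each. After LPS, 12 of 43 were again lower and 0 higher, against 0.892% lower and 1.17% higher among all probe sets and 1.48% and 1.62% among named genes. The genes that fell were BNIP3, BNIP3L, KDM3A, PFKFB4, PFKFB3, DDIT4, P4HA1, ANKRD37, AK4, ALDOC and PFKM under both stimuli, VEGFA under CD40L and ENO2 under LPS. At an unadjusted p below 0.05 the members split into 17 lower and 1 higher after CD40L and into 16 lower and 1 higher after LPS. The median log2 fold change of the 43 members was −0.088 after CD40L and −0.093 after LPS, where the medians of all probe sets were 0.005 and 0.003. Log2 fold changes were below zero for 35 of 43 members (81.4%) after CD40L and for 37 of 43 (86.0%) after LPS, compared with 47.5% and 48.2% of all probe sets. The baseline varied with level. Around 13.75 the median of all probe sets was −0.10 after CD40L and −0.12 after LPS, and around 9.75 it was 0.07 and 0.05. The members below zero numbered 28 and 32 without the control array of batch 2, 31 and 29 without the whole of batch 2, and 37 and 36 after quantile normalization. The comparisons of CD40L and of LPS with control use the same 3 control arrays. In bulk RNA a lower level per cell and fewer cells that express a gene cannot be told apart.

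These counts depended on the batch term and on single arrays. Without the batch as a term in the model, 4 members were lower after CD40L and 2 after LPS. The CD40L count was 7 without the CD40L array of batch 2, 7 without that of batch 3 and 4 without the whole of batch 3, while the LPS count was 4 without the LPS array of batch 2, 7 without that of batch 3 and 1 without the whole of batch 3. No member was called higher under any of these settings. Over all probe sets the number called lower fell as well, from 1022 for CD40L and 487 for LPS. It was 562 and 166 without the batch term, and 467 and 115 without the whole of batch 3. For CD40L it was 790 without its array of batch 2 and 604 without that of batch 3. For LPS it was 186 without its array of batch 2 and 233 without that of batch 3.

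**Figure D1:**
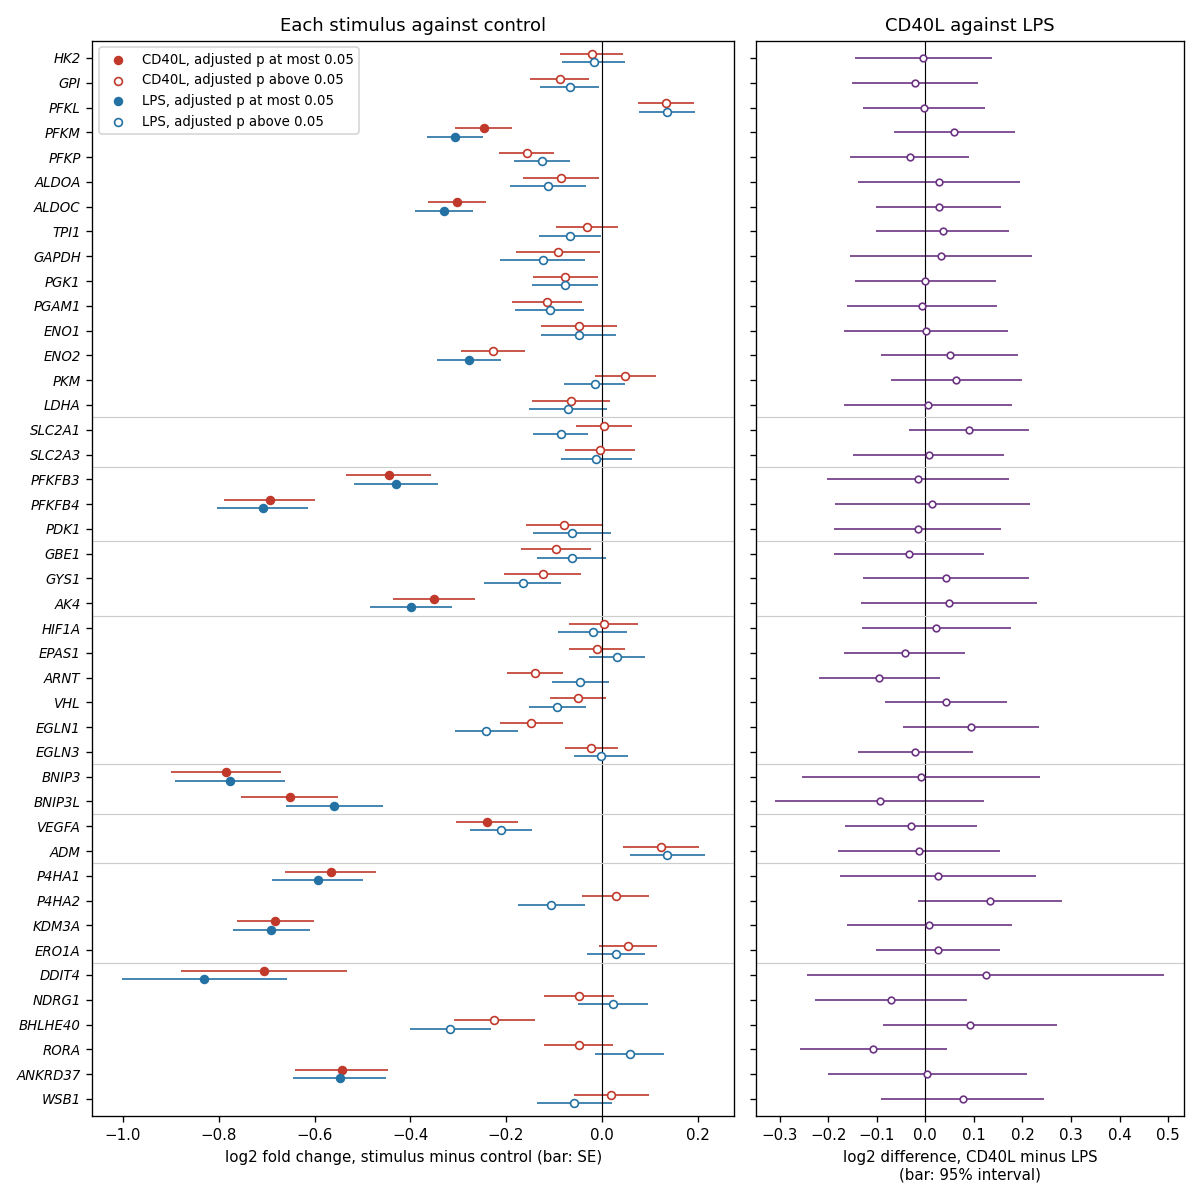
Log2 fold change of each of the 43 measured members against control (left, circles with bars of 1 SE, red for CD40L and blue for LPS, filled where the adjusted p was at most 0.05) and log2 difference of CD40L minus LPS (right, bars are 95% intervals), with grey lines between the functional groups. The filled circles all lie left of zero, from −0.24 to −0.83, and every interval on the right includes zero.

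The start regions of the lowered genes were searched for the 5-letter cores of the hypoxia response element, ACGTG and GCGTG, on both strands. RefSeq windows on GRCh38.p14, from 250 bases before to 50 bases after a transcript start, matched 38 of the 43 measured members and 11 of the 13 lowered ones (all but BNIP3L and VEGFA). Shown here are 60 bases of 8 lowered genes, printed 5′ to 3′ along the gene's own strand and chosen to show a match to ACGTG or, in windows without one, to GCGTG. Capitals mark each match, which reads CACGT or CACGC when it lies on the opposite strand, and ACGTG overlaps the E-box CACGTG, a palindrome that matches on both strands.
BNIP3, chr10:131982014-131982073, minus strand: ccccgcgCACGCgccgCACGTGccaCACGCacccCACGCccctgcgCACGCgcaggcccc
ANKRD37, chr4:185396661-185396720, plus strand: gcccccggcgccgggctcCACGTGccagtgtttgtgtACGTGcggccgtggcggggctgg
ALDOC, chr17:28577086-28577145, minus strand: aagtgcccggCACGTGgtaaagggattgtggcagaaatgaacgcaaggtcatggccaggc
DDIT4, chr10:72273774-72273833, plus strand: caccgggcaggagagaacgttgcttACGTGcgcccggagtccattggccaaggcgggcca
P4HA1, chr10:73096917-73096976, minus strand: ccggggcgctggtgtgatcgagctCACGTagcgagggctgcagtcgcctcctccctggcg
ENO2, chr12:6914440-6914499, plus strand: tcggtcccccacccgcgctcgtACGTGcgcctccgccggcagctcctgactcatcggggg
PFKFB4, chr3:48556934-48556993, minus strand: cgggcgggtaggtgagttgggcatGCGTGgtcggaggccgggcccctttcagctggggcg
KDM3A, chr2:86441311-86441370, plus strand: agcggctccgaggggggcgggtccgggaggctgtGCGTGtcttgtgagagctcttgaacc

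The stretch of BNIP3 held 6 matches, 2 to ACGTG within 1 E-box and 4 to GCGTG. ANKRD37 held an E-box and a further ACGTG, ALDOC an E-box, and DDIT4, P4HA1 and ENO2 a single ACGTG each. PFKFB4 and KDM3A had a GCGTG alone in the stretch shown. Across RefSeq, ACGTG was found in 21.4% of 35116 windows, GCGTG in 36.5% and either in 48.4%. Counted by gene, ACGTG was present in at least 1 window of 9 of 11 lowered members and 14 of 27 other members. The share was 24.9% of all 27305 genes and 28.8% of the genes named on the array. Because genes with several start sites have more windows to match, the count was repeated over genes with 1 window. Of these, 6 of 7 lowered members and 8 of 20 other members held ACGTG. So did 21.3% of all 22114 such genes and 24.2% of those named on the array. The members were listed partly because they are known to respond to low oxygen, so their shares against all genes are not an independent test. Base composition was not matched. Counted by window the groups lay closer, with ACGTG in 11 of 22 windows of lowered members and 17 of 37 windows of other members. Windows of a gene can overlap, so windows are not independent and a single site can count more than once. The ACGTG of PFKM and the GCGTG of KDM3A were counted in this way. GCGTG was found in 10 of 22 and 17 of 37 windows, and in 7 of 11 lowered members and 15 of 27 other members. Its share was 40.6% of all genes and 50.6% of the genes named on the array. No difference between lowered and other members was tested. A match is a run of letters and was not tested for binding by any factor.

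**Figure D2:**
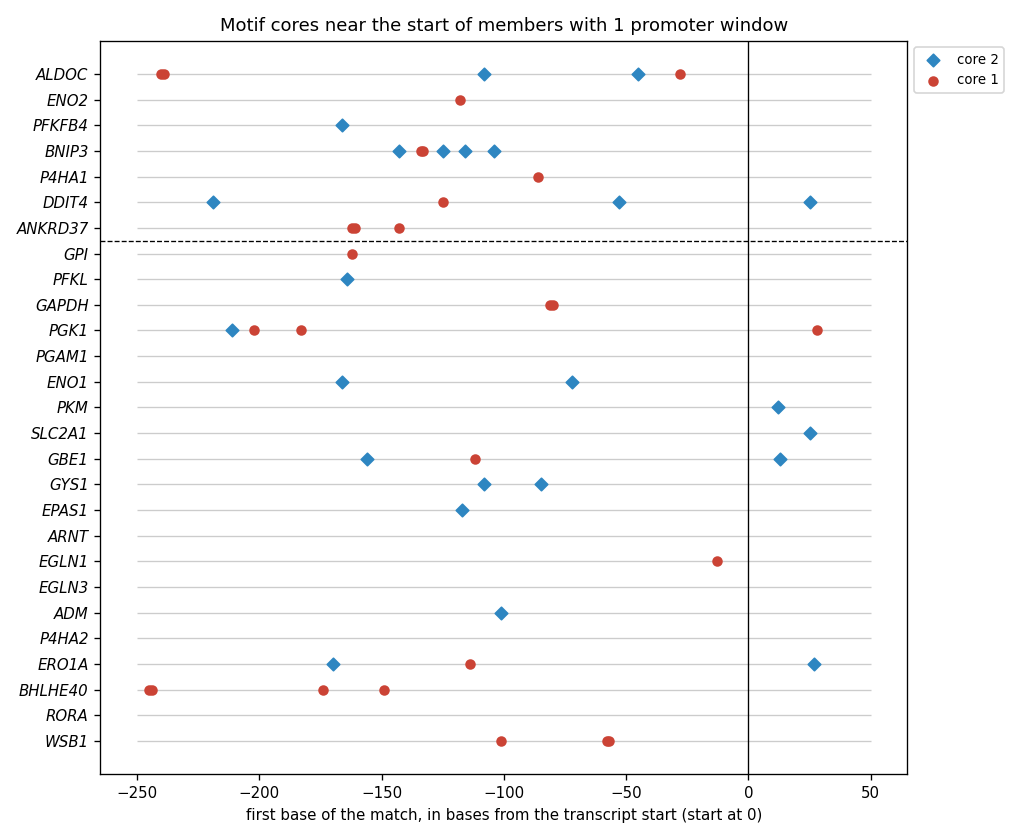
Positions of the 2 motif cores (red circles ACGTG, core 1; blue diamonds GCGTG, core 2; either strand) from 250 bases before to 50 bases after the transcript start in the 27 measured members with 1 RefSeq window. The 7 genes above the dashed line were lower after CD40L or LPS, 6 of them with a red circle, and 8 of the 20 genes below it have one.

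The oxygen sensing genes themselves were not called in either comparison (0 of 6, with unadjusted p below 0.05 for 2 of them after CD40L and 1 after LPS). HIF1A, an oxygen-labile alpha subunit, stood at 10.80, 10.56 and 10.78 on the control arrays, 10.67, 10.81 and 10.67 after CD40L and 10.69, 10.76 and 10.64 after LPS. The 3 groups overlapped fully, and the log2 fold changes were 0.004 ± 0.07 (SE) and −0.02 ± 0.07 (SE), with 95% intervals of −0.15 to 0.16 and −0.17 to 0.13. ARNT, its constant partner, had log2 fold changes of −0.14 after CD40L (adjusted p = 0.238) and −0.04 after LPS (adjusted p = 0.884). EGLN1, the main prolyl hydroxylase, read 9.66, 9.77 and 9.54 in control cells, 9.49, 9.78 and 9.25 after CD40L and 9.49, 9.50 and 9.25 after LPS. All 3 LPS arrays lay below all 3 control arrays, whereas the CD40L array of batch 2 was as high as any control. Its log2 fold changes of −0.15 and −0.24 did not pass the threshold (adjusted p = 0.282 and 0.0776). After quantile normalization of the arrays EGLN1 was called lower under both stimuli (−0.22, adjusted p = 0.0255 for CD40L, −0.28, adjusted p = 0.00806 for LPS), and ARNT under CD40L (−0.19, adjusted p = 0.0346). EGLN1 was also called under LPS without the control array of batch 2 (−0.27, adjusted p = 0.0317) or the CD40L array of batch 2 (−0.24, adjusted p = 0.0346). VHL, which recognises the hydroxylated subunit, had log2 fold changes of −0.05 and −0.09. For EGLN3, a prolyl hydroxylase that is itself a HIF target, they were −0.02 and −0.002, and for EPAS1, another alpha subunit, −0.01 and 0.03. The EPAS1 probe set lay near the floor of the arrays. That of EGLN3 had a mean level of 6.59, little above the median of all probe sets, so a change in either could have gone unseen. Transcript levels do not report on the stability of HIF proteins, which is set after translation.

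Among the genes that steer carbon through glycolysis, PFKFB3 and PFKFB4 fell and PDK1 was not called. PFKFB4 and PFKFB3 make and remove the sugar bisphosphate that switches phosphofructokinase on. PFKFB4 stood at 7.15, 7.92 and 7.52 in control cells, 6.85, 6.91 and 6.75 after CD40L and 6.71, 6.95 and 6.80 after LPS. Every stimulated array lay below every control array, the control of batch 1 being the nearest to them. The log2 fold change was −0.69 ± 0.09 (SE) after CD40L and −0.71 ± 0.09 (SE) after LPS (adjusted p = 0.000254 and 0.00072), that is 61.8% and 61.2% of the control level if the scale is read as plain log2. PFKFB3, expressed in many dividing cells, read 7.68, 8.34 and 8.01 in control cells, 7.50, 7.67 and 7.52 with CD40L and 7.60, 7.62 and 7.52 with LPS. Here too no stimulated array reached the lowest control, although the control of batch 1 and the CD40L array of batch 2 nearly met. Its log2 fold changes were −0.45 ± 0.09 (SE) and −0.43 ± 0.09 (SE) (adjusted p = 0.00546 and 0.0159). The other 2 genes of the family, PFKFB1 and PFKFB2, were not called and had log2 fold changes of 0.04 and 0.16 after CD40L and of 0.03 and 0.11 after LPS. PDK1, the kinase that holds pyruvate back from the mitochondria, had log2 fold changes of −0.08 and −0.06 (adjusted p = 0.763 and 0.882).

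Of the 15 glycolytic enzymes, 2 were lower after CD40L (ALDOC and PFKM) and 3 after LPS (ALDOC, PFKM and ENO2), and none was higher. Among named genes 2.92% were called lower after CD40L and 1.48% after LPS, and the small counts of enzymes were not tested against these shares. ALDOC, the aldolase known from brain, gave 8.05, 9.03 and 8.15 in control cells, 7.84, 8.59 and 7.90 after CD40L and 7.77, 8.57 and 7.90 after LPS. The groups overlapped because all 3 arrays of batch 2 were high, yet within each batch both stimulated arrays were below the control. The fit with batch as a term gave log2 fold changes of −0.30 ± 0.06 (SE) and −0.33 ± 0.06 (SE) (adjusted p = 0.00615 and 0.00813), and without that term the adjusted p was 0.747 and 0.825. PFKM, the muscle type subunit of phosphofructokinase, measured 10.31, 10.16 and 10.25 on control, 10.03, 9.91 and 10.03 on CD40L and 10.02, 9.74 and 10.03 on LPS arrays. All stimulated arrays were below all controls. PFKM had log2 fold changes of −0.25 ± 0.06 (SE) (adjusted p = 0.0193) and −0.31 ± 0.06 (SE) (adjusted p = 0.0108). ENO2, the neuronal type enolase, ran at 7.91, 7.83 and 7.79 in control cells, 7.82, 7.67 and 7.36 after CD40L and 7.65, 7.64 and 7.41 after LPS. The LPS arrays were all below the controls, while the CD40L array of batch 1 lay among them. The log2 fold change of ENO2 was −0.28 ± 0.07 (SE) after LPS (adjusted p = 0.0399) and −0.23 ± 0.07 (SE) after CD40L, where it missed the threshold (adjusted p = 0.0587). ENO2 was called lower under CD40L after quantile normalization (−0.28, adjusted p = 0.00775), without the control array of batch 2 (−0.26, adjusted p = 0.0215) and without the CD40L array of batch 1 (−0.29, adjusted p = 0.049).

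The other 12 glycolytic enzymes, which between them cover every step of the pathway, were not called. Their log2 fold changes ran from −0.16 to 0.13 after CD40L and from −0.12 to 0.14 after LPS, and no 95% interval reached beyond −0.31 or 0.26. They included the paralogues of the lowered enzymes. PFKL, the liver type phosphofructokinase subunit, had log2 fold changes of 0.13 and 0.14 (adjusted p = 0.273 and 0.37), and PFKP, the platelet type subunit, of −0.16 and −0.12 (adjusted p = 0.158 and 0.418). After quantile normalization PFKP was called lower under CD40L (−0.22, adjusted p = 0.026). ALDOA and ENO1, the aldolase and enolase of most tissues, had log2 fold changes of −0.08 and −0.05 with CD40L and of −0.11 and −0.05 with LPS. Whether paralogues differed in their change was not tested. HK2, which traps glucose as its phosphate, had log2 fold changes of −0.02 and −0.02, and PKM, the pyruvate kinase, of 0.05 and −0.01. GPI, TPI1, PGK1 and PGAM1, which act on the intermediates between glucose phosphate and enolase, lay between −0.11 and −0.03 after CD40L and between −0.11 and −0.07 after LPS. GAPDH, LDHA, ENO1 and ALDOA were high on 4 arrays, the controls of batches 2 and 3 and both stimulated arrays of batch 3. GAPDH, which makes the first high-energy intermediate, read 13.85, 14.29 and 14.28 in control cells, 14.04, 13.90 and 14.21 after CD40L and 13.84, 13.88 and 14.33 after LPS. LDHA, a lactate dehydrogenase subunit, read 13.37, 13.82 and 13.78 in control cells, 13.56, 13.52 and 13.70 after CD40L and 13.46, 13.47 and 13.83 after LPS. The median of the 257 probe sets with a mean level above 13 was also high on these 4 arrays, at 13.81 to 13.93 compared with 13.57 to 13.74 on the other 5. Quantile normalization turned the sign of GAPDH and LDHA, from −0.09 to 0.03 (CD40L) and from −0.12 to 0.003 (LPS) for GAPDH and from −0.07 to 0.01 and from −0.07 to 0.03 for LDHA, none of them past the threshold.

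**Figure D3:**
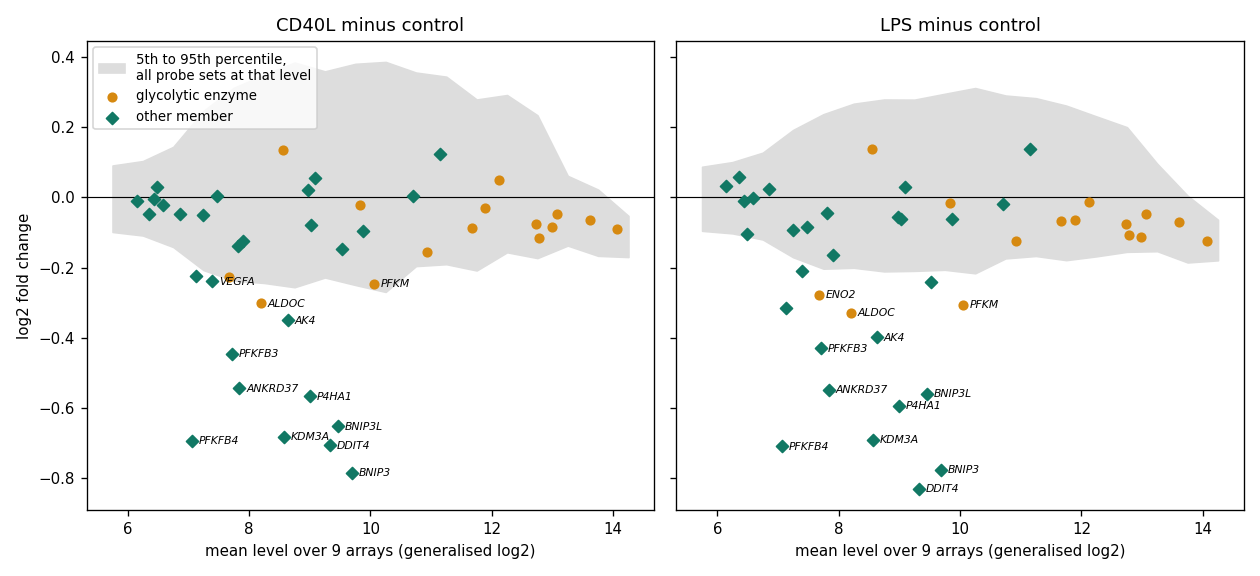
Log2 fold change against the mean level over the 9 arrays for the 43 measured members (orange circles, glycolytic enzymes; green diamonds, other members), with the called members named and a grey band from the 5th to the 95th percentile of all probe sets of a similar level. Members named in the CD40L panel (left) run down to −0.78 and those in the LPS panel (right) to −0.83, while the orange circles at levels above 11 lie between −0.12 and 0.05.

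The glucose transporters were not called (0 of 2, none with an unadjusted p below 0.05). SLC2A1, the main transporter of dividing cells, had log2 fold changes of 0.005 after CD40L and −0.09 after LPS, and SLC2A3, near the floor of the arrays, of −0.004 and −0.01. Of the 3 glycogen and nucleotide enzymes, AK4 fell under both stimuli. AK4, an adenylate kinase of the mitochondrial matrix, stood at 8.66, 9.22 and 8.77 in control cells, 8.51, 8.68 and 8.40 after CD40L and 8.44, 8.48 and 8.53 after LPS. The LPS arrays were all below the controls and the CD40L array of batch 2 was not. Its log2 fold changes were −0.35 ± 0.09 (SE) and −0.40 ± 0.09 (SE) (adjusted p = 0.022 and 0.0208), and 3 of its 4 probe sets were called lower under each stimulus. GYS1, the glycogen synthase of muscle and most other tissues, had log2 fold changes of −0.12 and −0.17 (adjusted p = 0.544 and 0.456), and GBE1, which adds branches to glycogen, of −0.10 and −0.06 (adjusted p = 0.625 and 0.861). Without the control array of batch 2, GYS1 was called lower under both stimuli (−0.27, adjusted p = 0.00951 for CD40L, −0.31, adjusted p = 0.00513 for LPS).

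Both mitophagy receptors fell under both stimuli. BNIP3 and BNIP3L sit in the outer membrane of mitochondria and recruit the autophagy machinery to it. BNIP3 stood at 9.70, 10.74 and 10.19 in control cells, 9.28, 9.62 and 9.38 after CD40L and 9.35, 9.47 and 9.49 after LPS. All 6 stimulated arrays lay below the lowest control, and the control of batch 2 was the highest array by a wide margin. The log2 fold changes were −0.78 ± 0.11 (SE) and −0.78 ± 0.11 (SE) (adjusted p = 0.000499 and 0.00166), or 58.0% and 58.4% of control on a plain log2 reading. BNIP3L had 9.37, 10.34 and 9.88 in control cells, 9.05, 9.50 and 9.09 after CD40L and 9.22, 9.41 and 9.29 after LPS. The groups overlapped here, since the control of batch 1 was lower than the stimulated arrays of batch 2, and each batch on its own showed a fall. BNIP3L had log2 fold changes of −0.65 ± 0.10 (SE) and −0.56 ± 0.10 (SE) (adjusted p = 0.000821 and 0.00732). A second probe set of each gene was also called lower, with log2 fold changes of −0.65 and −0.75 for BNIP3 and −0.42 and −0.49 for BNIP3L.

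Besides the hydroxylases EGLN1 and EGLN3, which were not called, 4 members encode enzymes that use oxygen as a substrate. Of these KDM3A and P4HA1 fell and P4HA2 and ERO1A were not called. KDM3A, which removes methyl groups from a lysine of histone H3, gave 8.71, 9.40 and 8.98 in control cells, 8.26, 8.54 and 8.25 after CD40L and 8.30, 8.44 and 8.28 after LPS. No stimulated array came up to the lowest control. KDM3A had log2 fold changes of −0.68 ± 0.08 (SE) and −0.69 ± 0.08 (SE) (adjusted p = 5.95e-05 and 0.000234), or 62.3% and 62.0% of control, and it passed the threshold under all 22 alternative settings for both stimuli. P4HA1, a catalytic subunit of the prolyl hydroxylase that matures collagen, read 9.11, 9.75 and 9.30 in control cells, 8.87, 8.90 and 8.69 with CD40L and 8.83, 8.79 and 8.76 with LPS. The 6 stimulated arrays spanned a narrow range below all controls. Its log2 fold changes were −0.57 ± 0.10 (SE) and −0.59 ± 0.10 (SE) (adjusted p = 0.00161 and 0.00315). P4HA2, the other catalytic subunit, lay close to the median of all probe sets and had log2 fold changes of 0.03 and −0.11 (adjusted p = 0.922 and 0.661). ERO1A, which forms disulphide bonds in the endoplasmic reticulum, had log2 fold changes of 0.06 and 0.03 with 95% intervals of −0.07 to 0.18 and −0.10 to 0.16.

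The 6 genes of growth and transcription control included DDIT4 and ANKRD37, which fell under both stimuli, and 4 that were not called. DDIT4, an inhibitor of the growth kinase mTOR, stood at 8.89, 10.61 and 10.03 in control cells, 8.95, 9.58 and 8.88 after CD40L and 8.87, 9.43 and 8.74 after LPS. Its control arrays spread the most of the lowered genes, and the control of batch 1 lay between the stimulated arrays of its own batch. Within batches the CD40L difference was 0.07, −1.03 and −1.16 and the LPS difference −0.02, −1.18 and −1.29. The fall was thus seen in batches 2 and 3. The fit over all batches gave log2 fold changes of −0.71 ± 0.17 (SE) and −0.83 ± 0.17 (SE) (adjusted p = 0.0231 and 0.0178). With an intensity trend and a robust prior the adjusted p rose to 0.407 and 0.449. ANKRD37, an ankyrin repeat protein known as a HIF target, measured 7.69, 8.58 and 8.34 in control cells, 7.49, 7.83 and 7.66 after CD40L and 7.55, 7.75 and 7.67 after LPS. The groups overlapped only between the control of batch 1 and the stimulated arrays of batch 2 for CD40L and LPS. ANKRD37 had log2 fold changes of −0.54 ± 0.10 (SE) and −0.55 ± 0.10 (SE) (adjusted p = 0.00244 and 0.00596). BHLHE40, a repressor of transcription, read 6.83, 7.93 and 7.18 in control cells, 6.91, 7.40 and 6.96 after CD40L and 6.69, 7.50 and 6.79 after LPS. As for ALDOC, all 3 arrays of batch 2 were the highest of their condition. Its log2 fold changes of −0.22 and −0.32 missed the threshold (adjusted p = 0.168 and 0.0702), which it passed under LPS after quantile normalization (−0.35, adjusted p = 0.0436) and without the CD40L array of batch 2 (−0.32, adjusted p = 0.0206). Without the control array of batch 1 it passed under both stimuli (−0.35, adjusted p = 0.0246 for CD40L, −0.44, adjusted p = 0.0117 for LPS). NDRG1, a stress response gene, RORA, a nuclear receptor, and WSB1, a ubiquitin ligase subunit, had log2 fold changes of −0.05, −0.05 and 0.02 after CD40L and of 0.02, 0.06 and −0.06 after LPS.

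VEGFA, the growth factor of blood vessels, was lower after CD40L, and ADM, a peptide that widens them, was not called. VEGFA read 7.37, 7.74 and 7.53 in control cells, 7.20, 7.36 and 7.37 after CD40L and 7.31, 7.38 and 7.32 after LPS on its brightest probe set. The CD40L arrays were all below the controls, that of batch 3 only just below the control of batch 1, and the LPS array of batch 2 was level with that control. The log2 fold changes were −0.24 ± 0.06 (SE) after CD40L (adjusted p = 0.0371) and −0.21 ± 0.06 (SE) after LPS (adjusted p = 0.126). A second VEGFA probe set read 7.10, 8.01 and 7.73 in control cells, 6.71, 7.07 and 6.73 after CD40L and 6.91, 7.25 and 6.90 after LPS. It was called lower under both stimuli, with log2 fold changes of −0.78 ± 0.10 (SE) and −0.59 ± 0.10 (SE) and adjusted p of 0.000117 and 0.0037. The remaining 2 of its 4 probe sets were not called. ADM had log2 fold changes of 0.12 and 0.14 (adjusted p = 0.526 and 0.575). Of the 65 probe sets of the members that were not the brightest of their gene, 5 were called lower and 0 higher under each stimulus. Among all probe sets 1.87% were lower after CD40L and 0.892% after LPS. The 5 all belonged to AK4, BNIP3, BNIP3L and VEGFA, so they added no gene to the lowered members.

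**Figure D4:**
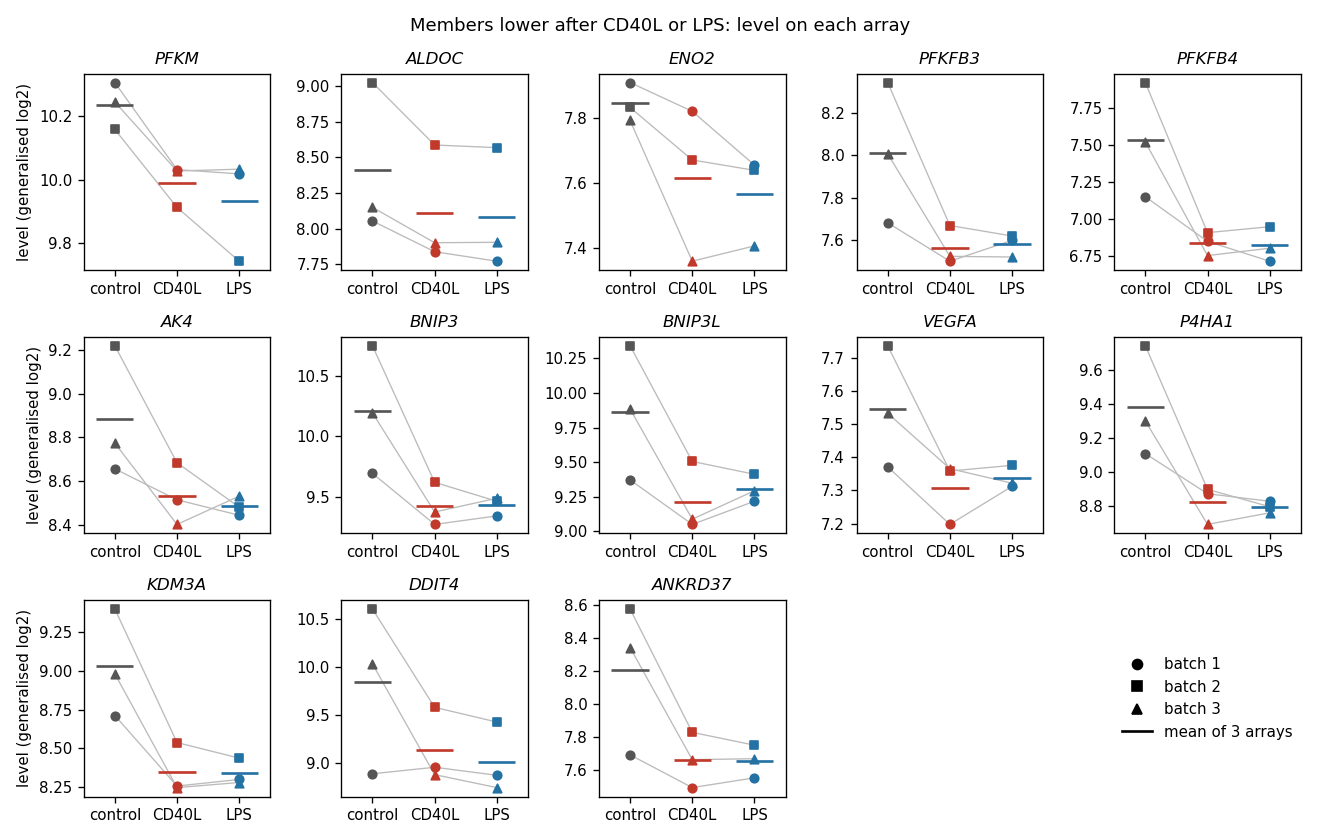
Level on each of the 9 arrays (generalised log2 scale, each panel with its own axis) for the 13 members lower after CD40L or LPS, with 1 symbol per batch, grey lines joining the arrays of a batch and bars at the mean of the 3 arrays of a condition. Control arrays spread widely, with batch 2 (squares) highest in 11 of 13 panels, and stimulated arrays lie closer together.

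The control arrays of the lowered members differed between batches by more than the stimulated arrays did. Of the 13 lowered members, 11 had their highest control level in batch 2 and 11 had their lowest in batch 1. The control arrays had the widest range of the 3 conditions for 11 of the 13, as for 26 of all 43 members and 35.4% of all probe sets, and the median range of the 13 was 0.69 on control, 0.29 on CD40L and 0.20 on LPS arrays. Over all 43 members the median difference within batches 1, 2 and 3 was −0.089, −0.165 and −0.153 after CD40L and −0.036, −0.215 and −0.072 after LPS. Within each of the 3 batches the LPS array was below the control for 13 of 13 lowered members, and the CD40L array for 12 of 13, DDIT4 being higher in batch 1. These genes were selected by the fit over the same arrays, and among all 43 members a fall in each batch was seen for 21 after LPS and 14 after CD40L. All 3 stimulated arrays lay below every control array for 7 of 13 lowered members (7 of all 43) after CD40L and for 8 of 13 (9 of all 43) after LPS. Among all probe sets that was so for 7.27% and 6.38%, and among named genes for 8.63% and 7.75%. With the control of batch 2 left out, 11 members were lower after CD40L and 14 after LPS. Over all probe sets that setting called 1332 lower after CD40L and 722 after LPS, compared with 1022 and 487 on all 9 arrays.

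**Figure D5:**
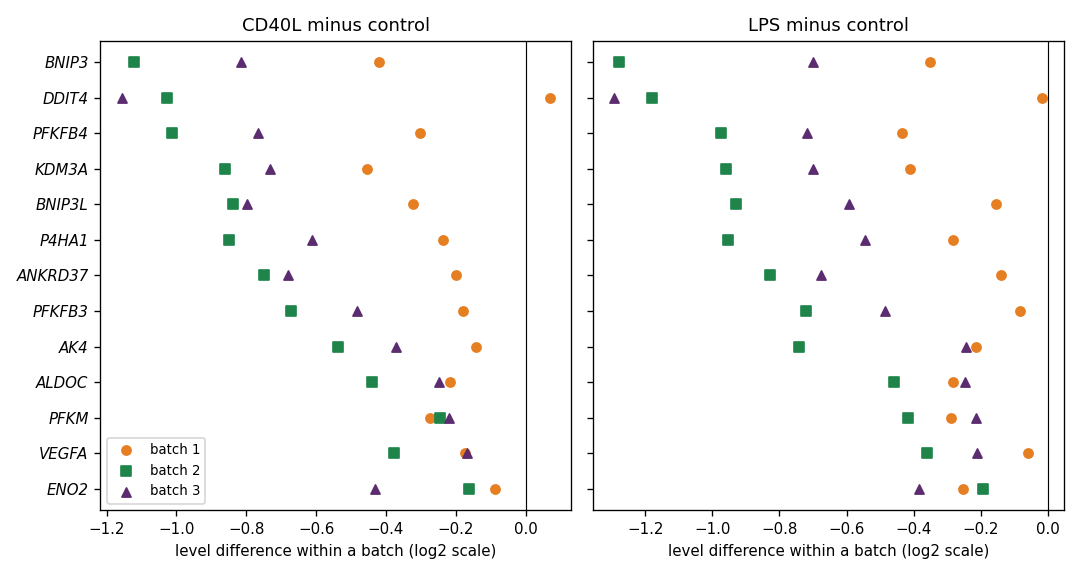
Difference in level between the stimulated and the control array of the same batch (log2 scale) for the 13 lowered members, for CD40L (left) and LPS (right), with 1 symbol per batch. Nearly all symbols lie left of zero, the exception being DDIT4 in batch 1 after CD40L at 0.07, and batch 1 (circles) is nearest to zero for most genes.

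CD40L and LPS were also compared directly, to ask whether the response of these genes differed between a T cell signal and a bacterial product. None of the 43 members differed at an adjusted p of at most 0.05, and none had an unadjusted p below 0.05 by limma, where 0.3% of all probe sets were called higher and 0.0952% lower with CD40L, or 0.491% and 0.152% of the probe sets that stand for named genes. The differences ran from −0.11 to 0.13 and their median was 0.007. Their 95% intervals leave room for differences of up to 0.49 in the widest case, DDIT4 (0.12, interval −0.24 to 0.49). For BNIP3L the difference was −0.09 with an interval of −0.31 to 0.12, for BNIP3 −0.01 with −0.25 to 0.24, and for KDM3A 0.01 with −0.16 to 0.18. The largest positive difference was that of P4HA2, at 0.13 with an interval of −0.01 to 0.28. VEGFA and ENO2, called under a single stimulus, had differences of −0.03 and 0.05 with intervals of −0.17 to 0.11 and −0.09 to 0.19, so the data do not show that either gene responds to 1 stimulus alone.

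Further genes of these pathways were measured on the same arrays. Of 22 other glycolysis and lactate genes, among them LDHB, HK1 and FBP1, limma called 0 in either comparison with control (unadjusted p below 0.05 for 4 after CD40L and 5 after LPS). TIGAR, which lowers the activator of phosphofructokinase that the PFKFB enzymes make, came nearest, with a log2 fold change of 0.26 after CD40L (adjusted p = 0.0547). Of 11 genes that pass pyruvate into mitochondria, 3 were higher and 1 lower after CD40L and 0 were called after LPS (4 with an unadjusted p below 0.05). Among named genes CD40L raised 5.03% and lowered 2.92%, and the small counts of pyruvate genes were not tested against these shares. PDK3, a kinase that shuts pyruvate dehydrogenase, read 8.64, 8.85 and 8.61 in control cells and 8.35, 8.36 and 8.29 after CD40L, which gave a log2 fold change of −0.37 ± 0.06 (SE) (adjusted p = 0.00187), compared with −0.23 after LPS (adjusted p = 0.0846). MPC1, a subunit of the pyruvate carrier, and DLD and DLAT, subunits of the pyruvate dehydrogenase complex, rose by 0.33, 0.31 and 0.28 after CD40L (adjusted p = 0.00231, 0.00266 and 0.029). Their log2 fold changes after LPS were 0.21, 0.21 and 0.26 (adjusted p = 0.09, 0.0577 and 0.0828). None of these 4 genes differed between CD40L and LPS at an adjusted p of at most 0.05. Further subunits of the carrier and the complex were not called. After CD40L the log2 fold changes of MPC2, PDHA1 and PDHB were −0.14, −0.06 and −0.04, and that of PDHX was 0.20.

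A list of 29 other HIF pathway genes held 1 that rose and 2 that fell with CD40L, and 1 that rose and 3 that fell with LPS. Among named genes 5.03% rose and 2.92% fell with CD40L, and 1.62% and 1.48% with LPS. The counts in the list are small and were not tested against these shares. Log2 fold changes were below zero for 16 of the 29 genes (55.2%) under each stimulus, with medians of −0.011 after CD40L and −0.029 after LPS. HILPDA, a lipid droplet protein, read 9.77, 10.57 and 9.90 in control cells, 9.29, 9.58 and 9.42 after CD40L and 9.44, 9.50 and 9.50 after LPS. Like BNIP3 it was highest on the control of batch 2 and below all controls on all stimulated arrays. Its log2 fold changes were −0.65 ± 0.10 (SE) and −0.60 ± 0.10 (SE) (adjusted p = 0.000897 and 0.00465). MXI1, an antagonist of MYC, had log2 fold changes of −0.46 and −0.44 (adjusted p = 0.000108 and 0.000605), and KDM4B, a histone demethylase, of −0.21 (adjusted p = 0.0544) and −0.26 (adjusted p = 0.0341). LOXL2, a lysyl oxidase that crosslinks collagen, rose instead, with log2 fold changes of 0.83 after CD40L and 0.48 after LPS (adjusted p = 5.67e-07 and 0.000624).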

How the data were processed

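Each of the 9 hybridisations on HG-U133 Plus 2.0 arrays gave values for 54675 probe sets. The authors subtracted background, applied a variance stabilising normalization to the probe intensities and used median polish to obtain 1 value per probe set. The deposited values are therefore on a generalised log2 scale. These values were used unchanged, which leaves differences at the bright end of the arrays in place. After 62 AFFX control probe sets were left out, 54613 were tested. The annotation gave 1 gene to 41097 probe sets, several to 1801 and none to 11777.

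Linear models were fitted with limma 3.58.1 in R 4.3.3 to the 9 arrays together, taking condition and batch for fixed terms, as the study's methods model the batches. Sample titles number the batches, so arrays of the same number are paired. Their deviations from the group means correlated at −0.181 to 0.466, above 0.1 in 7 of 9 pairs. All tests were two-sided. Benjamini-Hochberg adjustment covered the 54613 probe sets, with an adjusted p of at most 0.05 required. Residual degrees of freedom were 4, to which the prior added 11.6. With 3 arrays per condition the precision is limited. An exact permutation test of 3 against 3 that ignored the pairing could not go below p = 0.1, and one that kept the pairing would have a higher floor. Replicates correlated at 0.994 to 0.997.

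Every member called in a comparison is named with its value on each array, and of the other pathway genes those called. The genes, their functional groups and the pathway and marker lists were chosen with earlier results of these data known, and the windows and stretches printed were chosen after the values were seen. The fit was tested on simulated data. The αIgM, IL21 and BAFF arrays are not analysed here. Alternatives were no batch term, batch as a random effect (statmod 1.5.0), 2 groups at a time, median centring, quantile normalization, AFFX probe sets kept, dim probe sets removed, an intensity trend with a robust prior, single arrays or batches left out, and other choices of probe set.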

Additional observations from a re-analysis of the deposited data

Results flagged for a closer look

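LOXL2, a lysyl oxidase listed among the other HIF pathway genes, differed in its response between CD40L and LPS by a test of the difference itself. It read 9.03, 8.92 and 8.91 in control cells, 9.91, 9.85 and 9.59 after CD40L and 9.48, 9.53 and 9.28 after LPS. All CD40L arrays lay above all LPS arrays, which lay above all controls. CD40L exceeded LPS by 0.35 ± 0.06 (SE) on the log2 scale (adjusted p = 0.0168 by limma), higher in each of 3 batches. The difference did not pass the threshold without the batch term, with batch as a random effect, with the mean of all LOXL2 probe sets (0.15, adjusted p = 0.444), without batch 1 or batch 3, or without any 1 CD40L array or the LPS array of batch 1 or 3. The adjusted p ran from 0.000115 to 0.601 over the alternatives.

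CD38, an ectoenzyme of germinal centre B cells listed among the B cell markers, differed in the same test. It read 9.96, 9.71 and 9.76 in control cells, 9.22, 9.24 and 9.02 after CD40L and 9.54, 9.44 and 9.44 after LPS. All CD40L arrays lay below all LPS arrays, which lay below all controls. The difference of CD40L minus LPS was −0.32 ± 0.06 (SE) on the log2 scale (adjusted p = 0.0411 by limma). It did not pass the threshold without the batch term, with batch as a random effect, with median centring, dim probe sets removed or an intensity trend with a robust prior, without batch 1 or batch 3, or without the CD40L array of batch 1 or 3 or any 1 LPS array. Over all alternatives the difference ran from −0.39 to −0.26 and the adjusted p from 0.000871 to 0.8.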

How the results depend on the processing

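No member was called higher than control, and none differed between CD40L and LPS, under any alternative. Of 24 calls of a member lower under a stimulus, none turned its sign under 22 alternatives each, and 4 were kept under all of them (KDM3A under both stimuli, BNIP3 and PFKFB4 under CD40L). The count of members lower was 12 for each stimulus. Without the replicate block, that is with no batch term, it was 4 for CD40L and 2 for LPS, and with batch as a random effect 4 and 3. With an array or batch left out it ran from 4 to 13 for CD40L and from 1 to 14 for LPS, both lowest without batch 3. Quantile normalization gave 16 and 14 and changed the calls over all probe sets from 2027 higher and 1022 lower to 1707 and 1694 for CD40L, and from 637 and 487 to 775 and 870 for LPS. Without the block these were 884 and 562 for CD40L and 156 and 166 for LPS. Without batch 3, 467 probe sets were called lower for CD40L and 115 for LPS. The cause of these shifts was not tested.

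Calls lost when 1 array was left out were, for CD40L, PFKM and VEGFA (CD40L array of batch 1), AK4, ALDOC, DDIT4, PFKFB3 and VEGFA (batch 2), and AK4, DDIT4, PFKFB3, PFKM and VEGFA (batch 3). For LPS they were AK4, ALDOC, ENO2 and PFKM (LPS array of batch 1), AK4, ALDOC, ANKRD37, BNIP3L, DDIT4, ENO2, PFKFB3 and PFKM (batch 2), and ANKRD37, BNIP3L, DDIT4, ENO2 and PFKFB3 (batch 3). Without a control array the calls lost were PFKM under CD40L and ENO2 under LPS (batch 1), AK4, PFKM and VEGFA under CD40L (batch 2), and DDIT4 under both, VEGFA under CD40L and ENO2 and PFKFB3 under LPS (batch 3). Arrays of the other stimulus changed the calls of VEGFA under CD40L and of AK4 and DDIT4 under LPS. Calls gained by leaving out an array (GYS1, ENO2, EGLN1 and BHLHE40) are given with these genes, and leaving out batch 1 added BHLHE40, and batch 2 ENO2 and GYS1, under CD40L, and batch 2 GYS1 under LPS. VEGFA was also called under LPS with the mean of its probe sets or the one of largest change, and BHLHE40 with an intensity trend and a robust prior. An array left out leaves 2 in its condition, and dim probe sets (EPAS1, RORA, SLC2A3) have little signal over background to show a change.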
